A study of Rattus norvegicus with 4 samples.

Results

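The cells described here are the leukocytes of the rat dorsal root ganglion that carried little or no complement C1q RNA. They were picked from single-cell RNA counts of all 4 libraries by measured values alone. A barcode with 200 or more detected genes and at most 25% mitochondrial UMIs (unique molecular identifiers, 1 per captured RNA molecule) was a member if it held 2 or more UMIs of Ptprc, the gene of the pan-leukocyte phosphatase CD45. It also had to hold under 5 UMIs of C1qa, C1qb and C1qc together per 10000, under 20 per 10000 of the neuronal genes Snap25, Uchl1, Tubb3 and Stmn2, and under 20 per 10000 of the satellite glial genes Fabp7, Ttyh1, Sfrp5 and Kcnj10. This left 226 members of 46679 filtered barcodes, out of 49168 in all. The levels of Ptprc, C1q and the neuronal and glial genes in the members follow from this choice and are no result.

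The libraries were made from ipsilateral lumbar ganglia, L4 to L6, of male SD (Sprague-Dawley) rats, WT and naïve per the labels, with either sham treatment or CPIP, a model known in the field as chronic post-ischaemia pain. Each library pooled 3 rats, and each group had 2 libraries, named here Sham1, Sham2, CPIP1 and CPIP2. The labels do not state the age of the rats or the time after CPIP. The ganglia were digested with dispase, collagenase, DNase and papain, and the cells were captured in BD Rhapsody microwells.

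As background, the ganglion houses the cell bodies of sensory neurons and has a leaky vasculature, so that blood leukocytes can reach it. Most of its resident leukocytes are macrophages, which make C1q, the first component of the classical complement pathway. The C1q-low remainder can hold cells of the blood and of lymphoid lineages: neutrophils, which carry granules of antimicrobial proteins, monocytes, the precursors of many tissue macrophages, dendritic cells, which present antigen on MHC class II molecules, and T, NK and B lymphocytes. In nerve injury, these cells are known as sources of cytokines, chemokines and prostaglandins that act on sensory neurons.

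There were 54 members in Sham1, 35 in Sham2, 80 in CPIP1 and 57 in CPIP2. Their summed UMIs were 106330, 96859, 200462 and 154044, and their median UMIs per barcode were 1547, 2615, 2361.5 and 2325. All filtered barcodes had medians of 3695 to 4280 UMIs in the 4 libraries. No member barcode was shared between libraries. Of the members, 68 held exactly 2 Ptprc UMIs, 51 held 3 and 107 held 4 or more, while 109 barcodes that met the other limits held exactly 1. C1q was at 0 in 219 members and above 0 in 7, and 20 barcodes lay just outside that limit at 5 to under 10 per 10000. The neuronal limit had 23 members just inside it, at 15 to under 20 per 10000, and 11 barcodes just outside, at 20 to under 25. The glial limit had 1 member just inside and no barcode just outside.

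Members were sorted by marker genes of 9 lineages, each barcode going to the list with the highest mean scaled level if at least 2 of its markers were detected. This gave 56 macrophage-like, 36 monocyte-like, 34 T-like, 24 NK-like, 24 neutrophil-like, 14 dendritic-like, 12 B-like and 4 mast-like barcodes. A single barcode went to the plasma cell list, which had 2 usable markers and is not named further, and 21 stayed unsorted. Markers were kept for the sort only where their level in barcodes without Ptprc was low, so the sort is no independent check of the leukocyte label. Of the 10816 barcodes that met the other limits but had no Ptprc UMI, 10496 stayed unsorted under the same procedure, and 96 were sorted to the monocyte, 96 to the macrophage, 47 to the dendritic cell and 24 to the T cell list. The Ptprc limit thus left out barcodes that carry lineage markers. The classes are ranges of a score, and the border between the phagocyte classes was the least sharp. Of the macrophage-like barcodes, 15 of 56 lay within 0.1 of another list, against 4 of 36 monocyte-like and 0 of 34 T-like barcodes. Monocyte markers had a median of 92.1 UMIs per 10000 in the macrophage-like barcodes and 239 in the monocyte-like ones. An unsupervised clustering into 9 clusters placed all 24 neutrophil-like barcodes in 1 cluster, 30 of 34 T-like in 1, 21 of 24 NK-like in 1 and 10 of 12 B-like in 1. It put the 14 dendritic-like barcodes in a cluster led by Cst3 and MHC class II genes, together with 28 macrophage-like barcodes. The heat map of lineage genes shows the levels behind these classes, all of which describe the sort and were not tested.

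**Figure D1:**
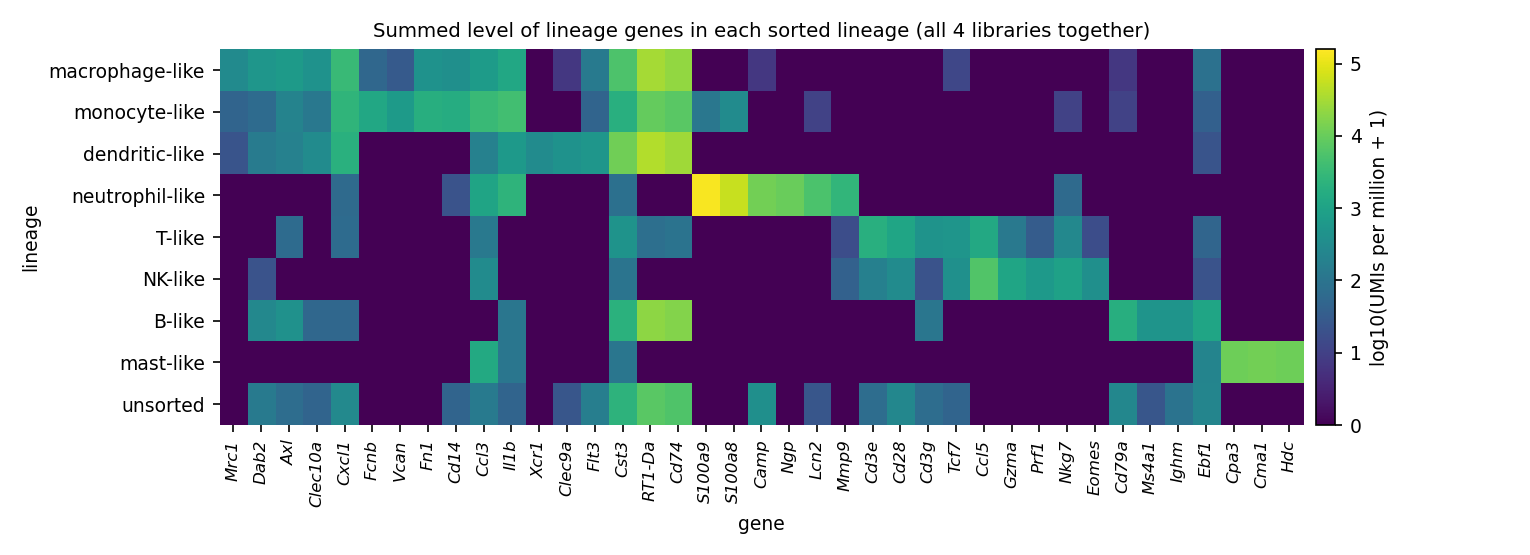
Level of lineage genes (x axis) in the members of each class (y axis), as log10 of the CPM (UMIs per 1000000 UMIs) plus 1, with the UMIs of all 4 libraries summed. S100a9 and S100a8 are highest in the neutrophil-like class, Cd3e in the T-like class, Ccl5 in the NK-like class, and RT1-Da and Cd74 are high in the macrophage-like, dendritic-like, monocyte-like and B-like classes.

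The neutrophil-like barcodes were marked by alarmin and granule genes. The genes named for this class, as for the NK-like, B-like, dendritic-like and mast-like classes, were chosen after their values were seen, because these classes had under 30 members. S100a9, a subunit of the neutrophil alarmin calprotectin, gave 6631 UMIs in the 24 neutrophil-like barcodes and 12 in all other members. Its partner S100a8 gave 2830 and 34. The granule genes Camp (a cathelicidin) and Lcn2 (an iron-binding lipocalin) gave 600 and 258 UMIs, and the granule protein gene Ngp 494, against 18, 2 and 0 in the other members. The proteases Mmp9 and Mmp8 gave 125 and 50 UMIs, against 3 and 0. Elane, Mpo, Prtn3 and Ctsg, genes of primary granules that are transcribed in bone marrow precursors, were at 0 UMIs in this class, and so was Ltf. Of the neutrophil markers used in the sort, Fcnb was at 0 UMIs in the class as well, and Il1r2 had 29 of the members' 88 UMIs there. Ngp was found in 10 of the 24 barcodes. Those 10 carried 177 UMIs of Camp and 98.2 of Lcn2 per 10000, and the 14 without Ngp carried 71.2 and 7.68. The 14 held more Il1b (40.5 against 9.41 UMIs per 10000) and Retnlg (61.9 against 21.3). The granule protease gene Mmp8 went with the second kind, at 14.9 UMIs per 10000 in the barcodes without Ngp and 6.14 in those with it. Barcodes with and without Ngp had medians of 2501 and 1381.5 UMIs.

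Monocyte-like barcodes were led by Fcnb (a ficolin made by monocytes and neutrophil precursors), Vcan, Fn1 and Cd14, with 141, 72, 194 and 174 UMIs against 9, 5, 77 and 69 in all other members. Fcnb was a marker of the neutrophil list in the sort, not of the monocyte list. Il1b, the gene of interleukin-1 beta, gave 454 UMIs in them and 373 elsewhere. Ccl3, a chemokine for monocytes and T cells, gave 351 and 223. Ccr2, the receptor that draws monocytes to Ccl2, was seen in 12 of 36 barcodes and Cx3cr1 in 2 of 36. Macrophage-like barcodes were led by the mannose receptor gene Mrc1 (52 UMIs against 6), Dab2 (91 against 26), the receptor kinase gene Axl (114 against 46) and Clec10a (75 against 31), the last of which is on the dendritic cell list used in the sort. Their C1qa was at 0 UMIs and their Apoe at 9. They also held 563 of the 948 Cxcl1 UMIs of the members. Dendritic-like barcodes were set apart by Xcr1 and Clec9a, receptors of the cross-presenting dendritic subset, with 15 and 21 UMIs against 0 and 2 elsewhere. Xcr1 was detected in 8 and Clec9a in 6 of the 14 barcodes. Flt3, the receptor that dendritic cells need to develop, was detected in 13 of 14 of them, which held 25 of the members' 60 Flt3 UMIs. Other genes of the dendritic cell list were low. Batf3 was at 0 UMIs in all members, and in the dendritic-like class Irf8 had 3 UMIs and Zbtb46 had 2. Ccr7, a gene of dendritic cells on the way to lymph nodes, had 1 UMI, and Siglech, a plasmacytoid marker, had 0.

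MHC class II genes were among the highest transcripts of the population. RT1-Da and RT1-Db1 encode the 2 chains of the rat RT1.D molecule (the counterpart of HLA-DR), RT1-Ba and RT1-Bb those of RT1.B (the counterpart of HLA-DQ), and Cd74 the invariant chain that guides both. In CPM (UMIs per 1000000 UMIs), RT1-Da reached 40507 in the dendritic-like, 31269 in the macrophage-like, 20341 in the B-like and 9254 in the monocyte-like barcodes. It was at 0 UMIs in the neutrophil-like and NK-like classes. The proximal promoters of the 4 class II genes are shown because class II genes were among the highest transcripts and RT1-Bb is the gene that DESeq2 called between the groups, described below. All 4 symbols matched a RefSeq promoter on build GRCr8, and each sequence is the 100 bases before the annotated start, 5′ to 3′ on the gene's strand. Capitals mark CTGATTGG, the letters of the Y box that NF-Y is known to bind in class II promoters.
RT1-Ba: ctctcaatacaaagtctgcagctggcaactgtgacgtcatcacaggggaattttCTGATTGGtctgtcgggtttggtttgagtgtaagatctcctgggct
RT1-Bb: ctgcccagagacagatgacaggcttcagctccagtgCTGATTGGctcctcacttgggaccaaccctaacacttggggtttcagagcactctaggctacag
RT1-Da: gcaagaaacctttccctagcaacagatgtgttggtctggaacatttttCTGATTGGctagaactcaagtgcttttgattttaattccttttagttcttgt
RT1-Db1: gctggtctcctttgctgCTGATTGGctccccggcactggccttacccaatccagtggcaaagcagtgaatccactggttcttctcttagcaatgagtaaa
The windows are chr20:4576957-4577056 on the plus strand for RT1-Ba, chr20:4604119-4604218 on the minus strand for RT1-Bb, chr20:4515315-4515414 on the plus strand for RT1-Da and chr20:4560163-4560262 on the minus strand for RT1-Db1. Each of the 4 holds CTGATTGG once, searched on both strands, against 1.82% of the 33469 promoters of the same window length. The labels name no build for the counting, so these positions are those of GRCr8 only.

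T-like barcodes were led by Cd3e, a chain of the T cell receptor complex, which gave 120 UMIs in 27 of the 34 barcodes and 12 UMIs in all other members. Cd28, the co-stimulatory receptor, gave 71 against 27, Cd3g 30 against 7 and the transcription factor gene Tcf7 33 against 24. Cd8a or Cd8b was found in 7 of 34 barcodes. Foxp3, the factor of regulatory T cells, had 4 UMIs, and Ccr7 had 0. NK-like barcodes carried Ccl5, a chemokine of cytotoxic lymphocytes, with 299 UMIs in 18 of 24 barcodes. Neutrophil-like barcodes, with a similar median depth (1495.5 against 1692 UMIs), had no Ccl5 UMI in 24. The cytotoxic genes Gzmb, Gzma and Prf1 gave 80, 57 and 32 UMIs in the NK-like class, and the transcription factor genes Tbx21 and Eomes 23 and 19. Cd3e was detected in 2 of the 24 and Cd8a in 5. T cell markers had a median of 13.9 UMIs per 10000 in the NK-like class and 65.4 in the T-like class. Of the receptor genes on the NK cell list, Ncr1 was at 0 UMIs in the NK-like class. Klrd1 had 7 UMIs in 6 barcodes there, and Klrb1b had 22 of the members' 53. B-like barcodes held the B cell receptor chain gene Cd79a (34 UMIs against 20 elsewhere), Ms4a1 (9 against 1) and Ighm (9 against 4). Pax5, a B cell transcription factor gene, was at 1 UMI. The 4 mast-like barcodes held all 104 Hdc UMIs of the members (histidine decarboxylase, which makes histamine), all 104 of Cpa3 and all 114 of Cma1. They came from Sham1 (2), Sham2 (1) and CPIP2 (1). Hdc and the list genes Fcer1a and Ms4a2 were detected in all 4, but Cma1 in 3 and Cpa3 in 2. The CPIP2 barcode held 89 of the Cma1 UMIs, the Sham2 barcode had no Cpa3 UMI, and Kit was at 0 in the class.

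Although the members were 0.484% of the filtered barcodes, they held a large share of the ganglion's transcripts for several immune genes. The sort used some of these genes, so the shares describe where the UMIs lay and were not tested. Of all Prf1 UMIs in filtered barcodes, the members held 85% (34 of 40, exact 95% binomial interval 70.2% to 94.3%). They held 73.3% of Cd3e, 59.7% of Camp, 55.6% of S100a8, 55.1% of S100a9, 51.4% of Ccr2 and 39.8% of RT1-Da. These pooled shares hide unequal libraries: in Sham1, Sham2, CPIP1 and CPIP2 the members held 22.6%, 88.5%, 64.7% and 13.5% of the Camp UMIs and 37.3%, 82.8%, 62.1% and 23.5% of the S100a9 UMIs. For these genes the C1q-positive macrophages (190 barcodes with the same Ptprc, neuronal and glial limits but C1q at or above 5 per 10000) held 0% to 13.3%. The order was the opposite for Il1b and Tnf: the members held 9.63% of the Il1b UMIs and the C1q-positive macrophages 29.7%, and for Tnf the values were 2.95% and 23.9%. Osm, an interleukin-6 family cytokine gene, had the first order, with 7.74% in the members and 4.78% in the macrophages. For Ccl2, Il6 and Cxcl10 the members held 0.186%, 0.0329% and 0.0268%, so nearly all of these UMIs lay in other barcodes of the ganglion. Pomc, the precursor of beta-endorphin, had 0 UMIs in the members of 28 in all, and Penk, the enkephalin precursor, 1 of 2791. Intervals here cover counting error only.

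**Figure D2:**
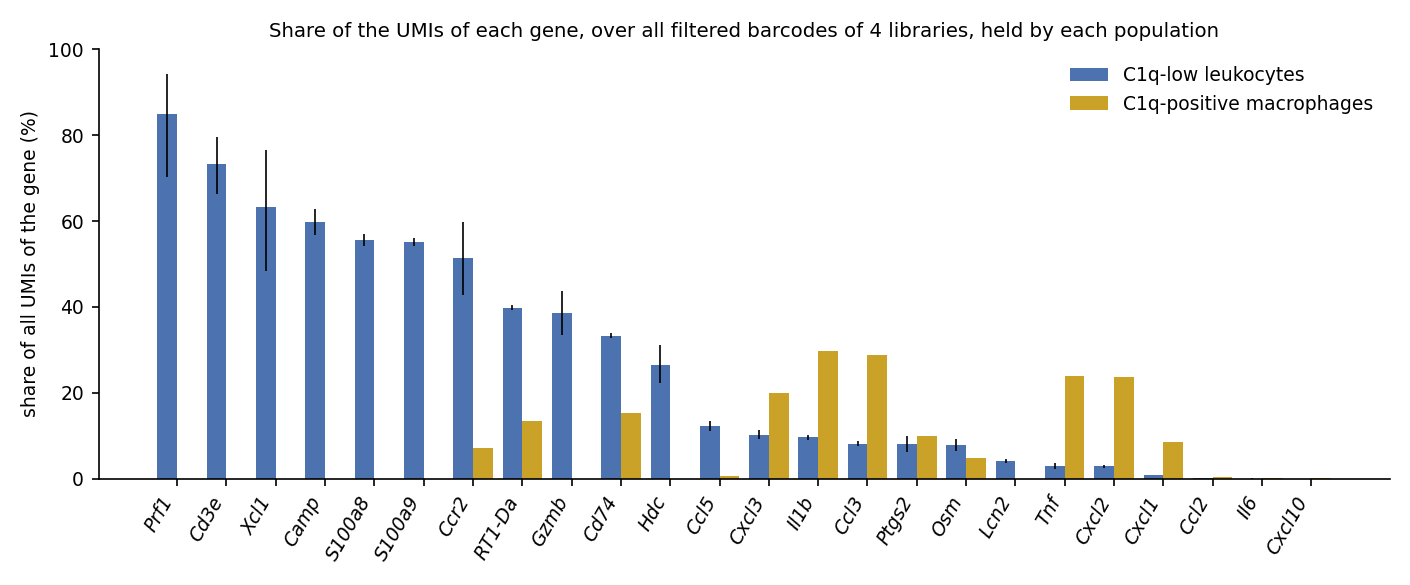
Share of all UMIs of each gene (x axis) that lay in C1q-low leukocytes (blue, with the exact 95% binomial interval) or in C1q-positive macrophages (yellow), in percent of the UMIs over all filtered barcodes. The members hold 85% of Prf1 and 55.1% of S100a9 but 0.186% of Ccl2.

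At the limits used, the shares of C1q-low leukocytes in sham and CPIP libraries overlapped, and 2 libraries per group cannot decide whether they differ. Members made up 0.478% of the filtered barcodes in Sham1, 0.312% in Sham2, 0.657% in CPIP1 and 0.476% in CPIP2. CPIP1 was the highest and Sham2 the lowest, and the groups overlapped through Sham1 and CPIP2. The means were 0.395% ± 0.117 (SD, n = 2) in sham and 0.567% ± 0.128 (SD, n = 2) in CPIP, with a two-sided exact permutation p of 0.667. With 2 libraries against 2, that test cannot go below 0.333. Member barcodes of Sham1 were shallower than those of the other libraries, as given above, and a fixed number of UMIs changes the picture. Thinned to 2000 UMIs, with shallower barcodes left out, 8 of 7964 barcodes were members in Sham1, 15 of 7783 in Sham2, 36 of 7898 in CPIP1 and 20 of 8102 in CPIP2. These shares, 0.100%, 0.193%, 0.456% and 0.247%, did not overlap between groups (exact permutation p of 0.333, the lowest possible). The C1q-positive macrophages made up 0.318%, 0.294%, 0.427% and 0.576% of the filtered barcodes in the same order, also without overlap and with the same p.

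The mix of lineages varied between libraries, and the shares of T-like, NK-like and mast-like barcodes did not overlap between groups. The mast-like shares, 3.704%, 2.86%, 0% and 1.75%, were 4 barcodes in all and were not tested. T-like barcodes were 15 of 54 members in Sham1 (27.8%, exact 95% binomial interval 16.5% to 41.6%), 5 of 35 in Sham2 (14.3%), 9 of 80 in CPIP1 (11.2%) and 5 of 57 in CPIP2 (8.77%). The difference of -11.0 percentage points (21.0 ± 9.54 in sham, 10.0 ± 1.75 in CPIP, SD, n = 2) had an exact permutation p of 0.333, and 1 after adjustment over the 7 lineages tested. NK-like shares were 7.41%, 8.57%, 8.75% and 17.5%, and the test gave the same p-values. Here the gap between Sham2 and CPIP1 was far inside their intervals, and the groups overlapped with Ptprc at 3 or more UMIs (exact permutation p of 1). They also overlapped with C1q under 2 per 10000, at most 10% mitochondrial UMIs or clusters in place of the sort (exact permutation p of 0.667 each). Neutrophil-like barcodes were 3, 4, 13 and 4, or 5.56%, 11.4%, 16.2% and 7.02% of the members. CPIP1 was highest, CPIP2 lay below Sham2, and without CPIP1 the sign of the group difference turned. For monocyte-like, macrophage-like, dendritic-like and B-like barcodes the groups overlapped and the sign depended on the sort or on a single library.

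**Figure D3:**
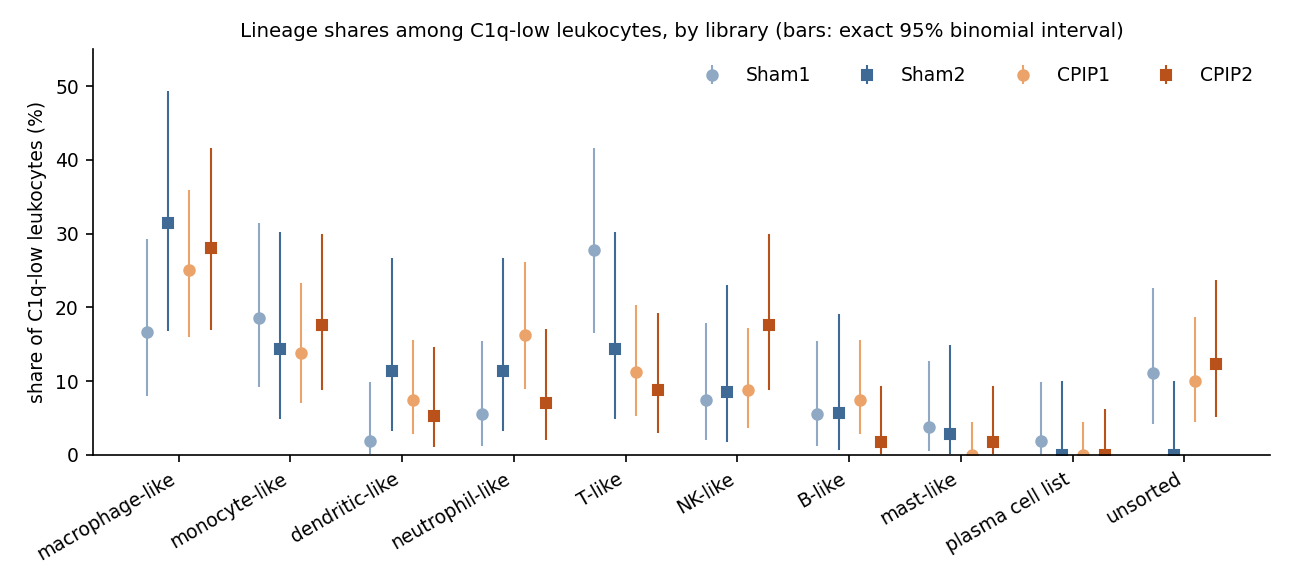
Share of each class (x axis) among the C1q-low leukocytes of a library, in percent (y axis), with the exact 95% binomial interval as bars. Sham1 has the highest T-like share, 27.8%, CPIP1 the highest neutrophil-like share, 16.2%, and the intervals of most classes overlap between all 4 libraries.

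To compare gene levels, the UMI counts of all members of a library were summed and CPIP was tested against sham with edgeR's quasi-likelihood test over 2337 genes. No gene passed an adjusted p of 0.05 (0% called), with 102 genes at an unadjusted p under 0.05 and a smallest adjusted p of 0.308. DESeq2 called 1 gene, RT1-Bb. The test could find large differences only: in counts simulated on these members, it recovered 96.5% of 8-fold changes, 38.6% of 4-fold changes and 0% of 2-fold changes. The simulation gave every gene the same assumed spread between libraries, not one estimated from these data. The percentages hold for that spread only. The genes below are those with the smallest p and the highest members of the gene lists, and their values are given as measurements. In 364 genes (15.6%) both CPIP libraries lay above both sham libraries, and in 381 (16.3%) both lay below, so such a separation was common. Levels from this test are CPM over the UMIs of the genes tested, with TMM scaling. Levels said to be without scaling are CPM over all UMIs, and the scales are not compared with each other.

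RT1-Bb was at 5416 and 5356 in Sham1 and Sham2 and at 2028 and 1049 in CPIP1 and CPIP2. Both CPIP libraries lay far below both sham libraries, with a log2 difference of -1.80 (SE 0.32, edgeR adjusted p = 0.308, DESeq2 adjusted p = 0.00634). Over 14 alternative settings its log2 difference ran from -2.37 to -1.39. Apart from fits without 1 library or without a filter on low counts, DESeq2 was the only setting that called it. Its partner chain gene RT1-Ba was at 8275, 10752, 5294 and 2966, also without overlap (log2 difference -1.20, SE 0.31, edgeR adjusted p = 0.649). RT1-Da did not follow: its levels of 16227, 26162, 22220 and 14291 overlapped, with a log2 difference of -0.21 (SE 0.32). Cd74, at 10299, 19648, 16434 and 11184, overlapped as well, with -0.12 (SE 0.34). Among the 9 tested genes of class II presentation, 7 were lower and 2 higher in CPIP with a median log2 difference of -0.28, against -0.00256 over all genes tested. Within monocyte-, macrophage- and dendritic-like members alone, RT1-Bb was at 7821, 6185, 2527 and 1392 CPM without scaling, so the groups did not overlap there either.

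The separation in RT1-Bb lay in barcodes that had RT1-D transcripts but no RT1-Bb at all. Among members with 20 or more RT1-Da UMIs, a limit chosen after values were seen, RT1-Bb was at 0 in 1 of 12 in Sham1, 0 of 15 in Sham2, 16 of 29 in CPIP1 and 8 of 17 in CPIP2. In the barcodes where it was detected, its median per 100 RT1-Da UMIs was 35.1, 19.0, 22 and 15.4. CPIP1 lay between Sham2 and Sham1 in those barcodes, and CPIP2 was the lowest. RT1-Ba was detected in all of these members, at medians of 38.0 and 32.1 per 100 RT1-Da UMIs in the CPIP1 and CPIP2 barcodes with RT1-Bb and at 13.1 and 9.17 in those without. C1q-positive macrophages with 20 or more RT1-Da UMIs also came in both kinds, with RT1-Bb at 0 in 5 of 13, 0 of 6, 4 of 14 and 4 of 13. Class II genes differ in sequence between haplotypes, each library pooled 3 rats, and the labels do not say how reads of unlike copies were counted. The part of these in the result was not tested.

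**Figure D4:**
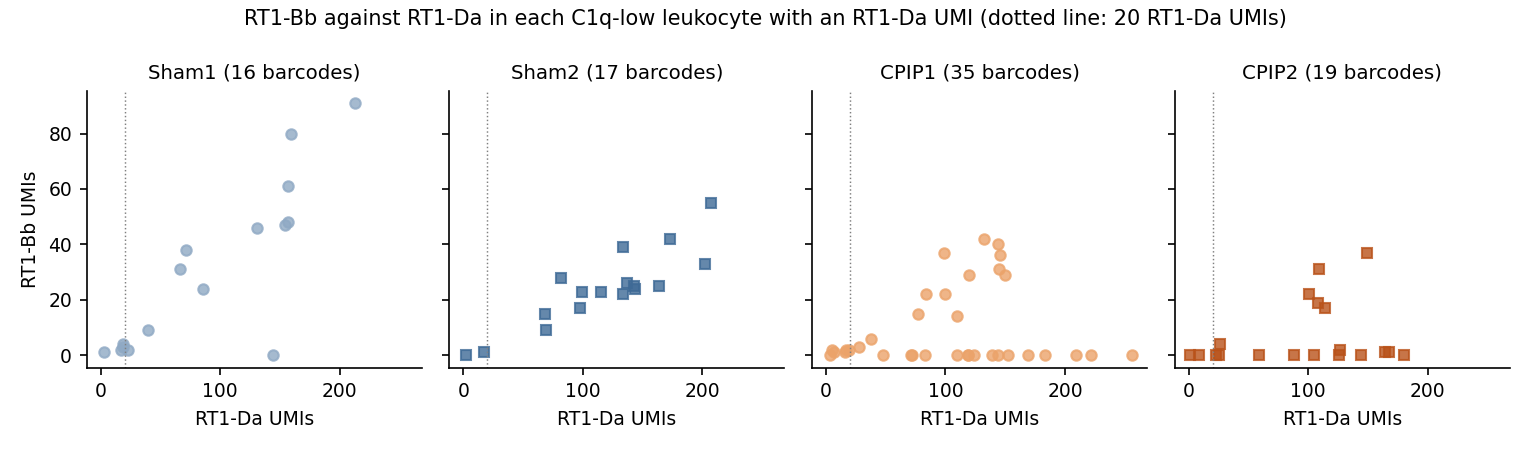
RT1-Bb UMIs (y axis) against RT1-Da UMIs (x axis) in each member with at least 1 RT1-Da UMI, 1 panel per library; the dotted line marks 20 RT1-Da UMIs. In Sham2 the points rise together, while 16 of the 29 CPIP1 and 8 of the 17 CPIP2 barcodes right of the line lie at 0 RT1-Bb UMIs, against 1 of 12 in Sham1.

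Several inflammatory genes of phagocytes were lower in CPIP without passing the test. Cxcl3, a neutrophil-attracting chemokine, was at 1301 and 1592 in the sham and at 546 and 282 in the CPIP libraries (log2 difference -1.79, SE 0.33, edgeR adjusted p = 0.308). These UMIs came from few barcodes, 7 and 9 in Sham1 and Sham2 and 12 and 11 in CPIP1 and CPIP2, with 21.1% to 40.2% of a library's UMIs in its highest barcode. Ccl3 was at 2124 and 1553 in sham and at 807 and 1033 in CPIP (log2 difference -1.002, SE 0.251, edgeR adjusted p = 0.649). Both groups of Ccl3 values stayed apart within the monocyte-, macrophage- and dendritic-like members, at 2986, 1847, 825 and 1210 CPM without scaling. In Sham2, 1 monocyte-like barcode held 52 of the 118 Ccl3 UMIs of all members (44.1%). The highest barcodes of Sham1, CPIP1 and CPIP2 held 17.8%, 9.02% and 17.4%. Whether the groups stay apart without that Sham2 barcode was not tested. Socs3, a feedback inhibitor of cytokine signalling, was at 200, 263, 72.9 and 93.9, and Plau, the urokinase gene, at 211, 250, 72.9 and 23.5. Il1b did not separate, with 2191, 1566, 1603 and 1933 (log2 difference -0.09, SE 0.24). Neither did Cxcl1, at 1835, 3527, 1955 and 1510, or Ccl2, at 1012, 1987, 692 and 1143. Of 12 tested chemokine genes, 5 were higher and 7 lower in CPIP, with a median log2 difference of -0.33. Cxcl10, a chemokine induced by interferon, was one of those higher, at 133, 237, 395 and 313 (log2 difference 0.95, SE 0.36, edgeR adjusted p = 0.996).

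Ptgs2, Csf1 and Hdc had lower levels in both CPIP libraries, and most of their sham UMIs lay in mast-like barcodes. Ptgs2, the inducible cyclooxygenase of prostaglandin synthesis, was at 289, 263, 78.9 and 78.3. Of its 26 and 20 UMIs in Sham1 and Sham2, 25 and 14 lay in the 2 and 1 mast-like barcodes of those libraries, and 1 of 10 in CPIP2. All other members held 1, 6, 13 and 9 Ptgs2 UMIs, or 9.78, 63.3, 64.9 and 59.6 CPM without scaling, and the groups overlapped there. Csf1, the macrophage growth factor gene, had 9, 15, 1 and 0 UMIs, of which 8 and 13 in the sham libraries were in 1 mast-like barcode each. No member of CPIP1 was mast-like, and Hdc was at 0 UMIs there. A count of 0 there allows a level of up to 14.97 CPM without scaling (3 UMIs of the total).

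Fcnb and Fn1, which lead the monocyte-like class, had higher levels in both CPIP libraries, in few barcodes. Fcnb was at 44.5 and 145 in sham and at 492 and 423 in CPIP (log2 difference 2.31, SE 0.46, edgeR adjusted p = 0.308). These were 4, 11, 81 and 54 UMIs in 2, 1, 6 and 4 barcodes, and in each library 1 barcode held more than 56% of them. Fn1, the fibronectin gene, was at 156 and 184 in sham and at 407 and 1377 in CPIP (log2 difference 2.38, SE 0.57, edgeR adjusted p = 0.649), again in 4, 3, 7 and 9 barcodes. Tubb5, a tubulin gene, was at 178 and 158 in sham and at 498 and 509 in CPIP (log2 difference 1.57, SE 0.29, edgeR adjusted p = 0.308), in 8, 10, 31 and 23 barcodes. Stmn1, which destabilises microtubules and is high in dividing cells, was at 267, 118, 358 and 806. The cell cycle list, which holds Tubb5 and Stmn1, had 5 of 6 tested genes higher in CPIP with a median log2 difference of 0.81, and none passed the test.

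Fibroblast markers were also higher in both CPIP libraries. Col1a1, a collagen gene of fibroblasts, had the smallest p of all genes, at 33.4 and 39.5 in sham and at 255 and 266 in CPIP (log2 difference 2.81, SE 0.42, edgeR adjusted p = 0.308). In CPIP1 1 unsorted barcode held 36 of its 42 UMIs, and in CPIP2 1 T-like barcode held 21 of 34. Sparc, a matrix protein gene, was at 77.9, 145, 382 and 728, with 29 of 63 and 46 of 93 UMIs in 1 barcode of each CPIP library. Among monocyte-, macrophage- and dendritic-like members alone, its log2 difference was -0.23. Summed over the 10 fibroblast markers, of which 9 were detected and Mfap5 was at 0, the level was 132, 134, 649 and 428 CPM without scaling. Over the 10 Schwann cell markers, 9 of them detected and Ncmap at 0, it was 498, 537, 514 and 2701. CPIP1 was below Sham2 there. The 8 endothelial markers in the files, all detected, summed to 37.6, 82.6, 215 and 90.9. The 10 satellite glial markers, 9 of them detected and Gfap at 0, summed to 602, 403, 788 and 753, both sets without overlap. The glial sum is partly fixed by the choice of members, which limited Fabp7, Ttyh1, Sfrp5 and Kcnj10. Glul alone gave 226 UMIs in the members, and in CPIP1 1 barcode held 40 of the 42 Apod UMIs. The glial separation is thus no result. The part of RNA from these other cell types in the other differences was not tested.

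**Figure D5:**
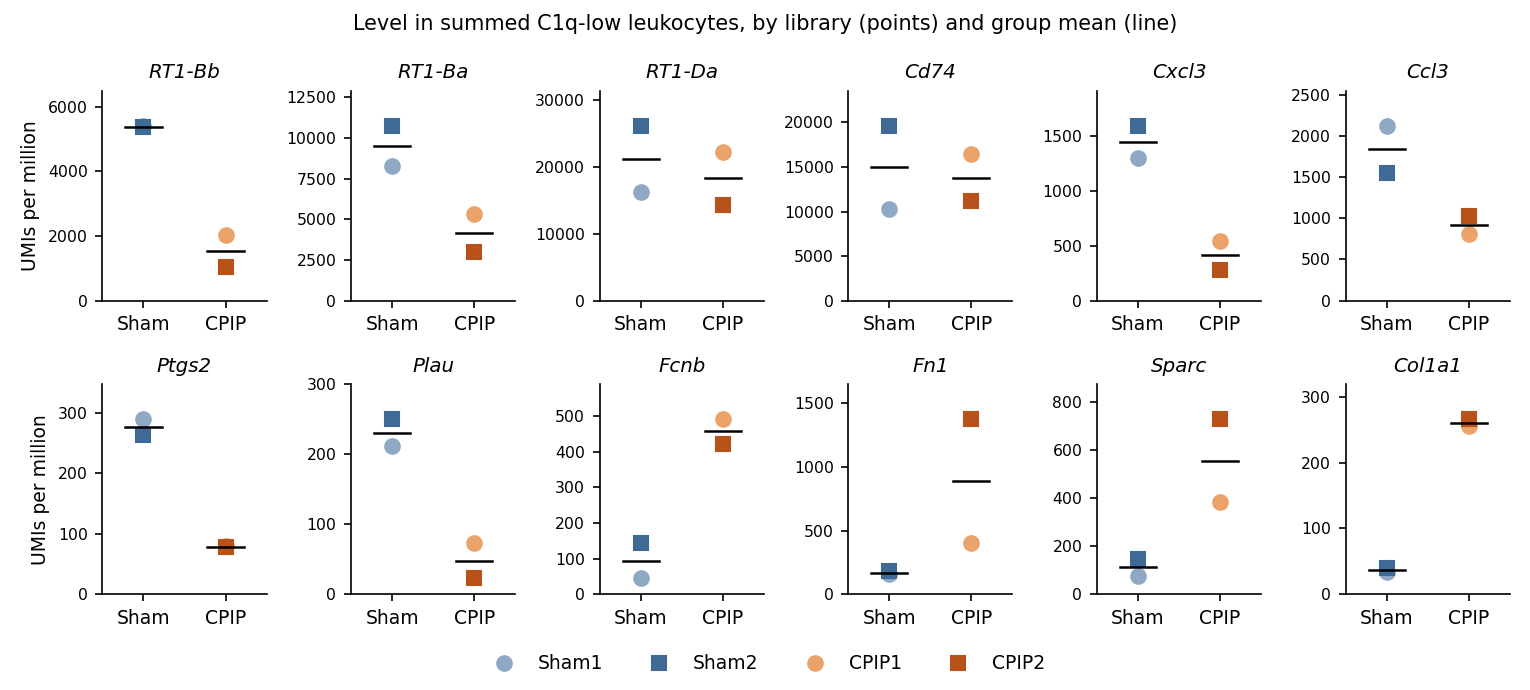
Level in the summed C1q-low leukocytes (y axis, CPM over the UMIs of the genes tested, with TMM scaling) of 12 genes, 1 point per library, the line being the group mean of 2 libraries. RT1-Bb, RT1-Ba, Cxcl3, Ccl3, Ptgs2 and Plau lie lower and Fcnb, Fn1, Sparc and Col1a1 higher in both CPIP libraries, while RT1-Da and Cd74 overlap; none passed the edgeR test.

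Most other gene groups lay near the median of all genes. The 23 tested immediate early and dissociation genes, which are induced by enzyme digestion, had 13 higher and 10 lower with a median log2 difference of 0.00617. Their summed level was 22767, 19951, 21097 and 21202. Heat shock genes (4 of 10 higher, median -0.12), NF-kB factors and feedback genes (7 of 12 higher, 0.03), oxidative phosphorylation genes (17 of 27 higher, 0.05) and leukocyte adhesion genes (10 of 14 higher, 0.09) were close to it too. All 6 tested neuroimmune mediators were lower in CPIP, with a median of -0.44, 4 of them without overlap. Of all 2337 genes tested, 1176 were lower, and 381 (16.3%) were lower without overlap. The list holds Il1b and Csf1, whose values are given above, and Hdc, at 545, 382, 0 and 203. All Hdc UMIs of the members lay in mast-like barcodes, and Hdc was a marker in their sort. Most sham UMIs of Csf1 lay in mast-like barcodes too. Neutrophil granule genes had a median of -0.02 over 11 genes, but their summed level ranged from 10944 in Sham1 and 8249 in CPIP2 to 48601 in Sham2 and 37331 in CPIP1. S100a9 alone was at 6517, 26399, 21061 and 4555, so the 2 libraries of each group differed more than the groups did. Cytotoxic granule genes (3 of 7 higher, median -0.24) varied likewise: Gzmb was at 823, 276, 60.7 and 266. Interferon response genes were higher in 3 of 5, with a median of 0.22. No member of any of the 26 lists passed the test.

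T-like members were tested alone, because a shift between lineages changes a sum over all members. Over 263 genes, edgeR called 0 (0%), with 16 at an unadjusted p under 0.05, and DESeq2 called 2. The smallest adjusted p was that of Ccl5, at 6997 and 4095 CPM in sham and at 745 and 0 in CPIP1 and CPIP2 (log2 difference -3.70, SE 0.67, edgeR adjusted p = 0.0559, DESeq2 adjusted p = 0.0157). Over 12 alternative settings its log2 difference ran from -8.20 to -2.89. Apart from fits without 1 library or without a filter on low counts, it was called with DESeq2, RLE scaling and at most 10% mitochondrial UMIs. In CPM over all T-like UMIs, the levels were 3058, 1880, 329 and 0. These were 63, 16, 6 and 0 UMIs in 4 of 15, 2 of 5, 1 of 9 and 0 of 5 barcodes, and 1 Sham1 barcode held 49 of the 63. Of the 85 Ccl5 UMIs, 12 lay in barcodes with Cd8a or Cd8b. Eef1a1, a translation factor gene, was at 31763, 36083, 10676 and 18452 (log2 difference -1.23, SE 0.31, edgeR adjusted p = 0.241, DESeq2 adjusted p = 0.0157). Over its 12 alternative settings the log2 difference ran from -1.60 to -0.90. Gzmb was at 3554, 1535, 621 and 0, and Cxcr4, a homing receptor gene, at 6775, 7933, 4593 and 1724. Higher in both CPIP libraries were Vim, an intermediate filament gene, at 1333, 1535, 3228 and 11209, and S100a4, at 1777, 0, 3228 and 8450. The T-like barcode with 21 Col1a1 UMIs, described above, is 1 of the 5 in CPIP2. In single T-like barcodes, fibroblast, Schwann cell and endothelial markers reached 42.4, 70.6 and 73.6 UMIs per 10000, against medians of 0, 2.89 and 0. The part of such RNA in these differences was not tested. Of the 263 genes tested in T-like members, 19.8% lay higher and 18.6% lower in both CPIP libraries. In NK-like barcodes, also in CPM over all UMIs, Ccl5 was at 5641 and 13650 in sham and at 3203 and 6411 in CPIP, and the groups overlapped. The 15, 5, 9 and 5 T-like barcodes set the limit of this comparison, since a single barcode can carry a gene's difference.

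A difference in the CPIP effect between C1q-low leukocytes and C1q-positive macrophages was tested directly with an interaction term over 2953 genes, with library as a block. None passed (0%, edgeR), with 127 at an unadjusted p under 0.05. The smallest p was that of Cxcl3. In this joint fit, its level was 1242, 1490, 522 and 258 CPM in the C1q-low leukocytes and 937, 1692, 1599 and 1929 in the macrophages of Sham1, Sham2, CPIP1 and CPIP2. The effect differed by -2.29 on the log2 scale (SE 0.39, edgeR adjusted p = 0.0621). Ccl3 had the same form, at 2027, 1453, 772 and 945 against 3191, 4300, 4735 and 5277 (-1.45, SE 0.30, edgeR adjusted p = 0.134). Nr4a1, an immediate early gene, differed by -3.71 (SE 0.77, edgeR adjusted p = 0.134). Its levels of 743, 246, 174 and 315 in the C1q-low leukocytes overlapped between groups. The macrophage sums held only 1, 1, 9 and 17 Nr4a1 UMIs, so the term rests on few UMIs. Klf2, a transcription factor gene of quiescent lymphocytes, differed by -2.04 (SE 0.46, edgeR adjusted p = 0.191). For RT1-Bb the term was -0.85 (SE 0.41, edgeR adjusted p = 1).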

How the data were processed

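The deposited files held raw UMI counts per gene and barcode for 4 libraries, as made by the authors; the labels name no aligner, counting tool or genome build. Members were picked and sorted in Python 3.11.15 (scanpy 1.11.5) with the limits given above. A marker was used in the sort if its level in barcodes without Ptprc was under 20% of that in the members. Counts were summed per library and tested with edgeR 4.0.16 (filterByExpr, TMM, quasi-likelihood, Benjamini-Hochberg over all tested genes, threshold 0.05); DESeq2 1.42.0 was the alternative. Shares were tested by exact permutation over libraries. Libraries, each a pool of 3 rats, are the replicates, so n is 2 per group. The edgeR script was tested on simulated data. Scrublet marked under 0.5% of barcodes in 3 of 4 libraries and so did not work there; an alternative removed its top 5% of scores in those and its calls in the other, which took 3 members. Libraries shared 0 to 5 filtered barcode sequences per pair.

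Members, marker lists and gene lists were chosen with earlier results of these data known. Named were lineage markers, leading genes of lineages with 30 or more members, genes with the smallest p in each comparison, and the 4 highest genes of each list. Alternatives were another test and scaling, no filter on low counts, other limits on Ptprc, C1q and mitochondrial UMIs, doublets, a replicate block, clusters in place of the sort, and leaving out each library. Thinning and the fits on part of the lineages were added after seeing the data.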

Additional observations from a re-analysis of the deposited data

How the results depend on the processing

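With 2 libraries per group, a fit without 1 library leaves 1 residual degree of freedom and assumes that the lone library varies like the other group. Counts of genes called in all members then ran from 23 (without CPIP2) to 43 (without Sham1), in T-like members from 3 to 32 (without CPIP1), and for the difference from macrophages from 0 to 13 (without CPIP1). Of the 71 genes called in any of these fits on all members, 3 were called in all 4. Without a filter on low counts the 3 comparisons called 31, 7 and 8 genes. DESeq2 called 1 in all members and 2 in T-like members, Ptprc of 3 or more UMIs gave 1 in all members (Hdc), and RLE scaling gave 1 and at most 10% mitochondrial UMIs gave 2 in T-like members. The other settings, including the fits without neutrophil-like members and on monocyte-, macrophage- and dendritic-like members only, called 0. The cause of these differences was not tested.

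The group difference in lineage share turned its sign for B-like barcodes (2.20 points with clusters in place of the sort, 2.12 thinned to 1000 UMIs), monocyte-like (5.21 with clusters), macrophage-like (-3.94 with clusters) and dendritic-like ones (0.027 with clusters, 1.38 at most 10% mitochondrial UMIs). Without 1 library, it ran from -3.88 to 1.87 points for B-like, -1.47 to 7.76 for neutrophil-like, -2.87 to 1.36 for monocyte-like, -4.89 to 9.87 for macrophage-like and -5.05 to 4.53 for dendritic-like barcodes. Without 1 library, the T-like difference ran from -17.8 (without Sham2) to -4.27 points (without Sham1) and the NK-like difference from 0.761 (without CPIP2) to 9.55 points (without CPIP1). Both kept their sign under their other settings too. The cluster shares rest on weak names: 1 cluster of 25 members, 16 of them monocyte-like, was unnamed and left out, and the cluster counted as dendritic-like held 28 macrophage-like barcodes among 52 and 0 dendritic markers in its top 10 genes. Sparc turned to -0.23 among monocyte-, macrophage- and dendritic-like members only.

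Sham and CPIP libraries share only replicate numbers, and the deviations of Sham1 and CPIP1 from their group means had a correlation of -0.28 over 2337 genes. With a replicate block, 0 genes were called in all members and 0 in T-like members.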

Other observations

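Some genes lay in 1 or a few barcodes, or outside the class whose marker list holds them. In Sham2, 1 neutrophil-like barcode held 380 UMIs of Defa5, 302 of Np4 and 242 of RatNP-3b, defensin genes that were at 0 in the other 23. In CPIP1, 1 unsorted barcode held 24 of the 27 UMIs of Prg2, the major basic protein gene of eosinophil granules. Unsorted barcodes also held 46 of the 49 Jchain UMIs of the members, in 5 of 21 barcodes, the gene of the chain that joins secreted antibodies. Jchain is 1 of the 2 usable markers of the plasma cell list, and a barcode needed 2 detected markers to be sorted. Ncr1, the gene of the NK receptor NKp46, was at 0 UMIs in the 24 NK-like barcodes and had 17 of its 18 UMIs in neutrophil-like ones, in 11 of 24 barcodes. Mki67, a gene of dividing cells, was found in 3 of 24 NK-like and 4 of 36 monocyte-like barcodes, and in 0 of 24 neutrophil-like ones. In NK-like barcodes it was seen in CPIP1 and CPIP2 and not in the 7 of the sham libraries. In monocyte-like barcodes it was likewise seen in the CPIP libraries and not in the 15 of the sham libraries. These values were picked out after they were seen and were not tested.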
